A study of Mus musculus with 6 samples.

Results

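The spindle checkpoint gene Bub1b and 9 further mitotic genes, namely Bub1, Bub3, Mad2l1, Ttk, Cdc20, Plk1, Aurkb, Top2a and Mki67, were followed in the retinas of female mice of the DBA/2J strain, which is inbred and becomes glaucomatous as it ages. The 10 genes, of 18193 that the array reads through probe sets with 1 gene symbol, were taken by symbol, and 23 probe sets carry 1 of these symbols. Each of 6 Affymetrix arrays held 1 retina from a separate animal. The 8-month group had 3 animals with elevated intraocular pressure, whose last readings were 25.3, 26.5 and 30.4 mmHg, and the 3-month group had 3 animals with normal pressure, at 19.1, 15.3 and 18.2 mmHg. Age and pressure differed together, and every retina was DBA/2J, so no other strain stands beside the comparison. Older retina 1 and the 3 younger retinas were left eyes, and older retinas 2 and 3 were right eyes. The question was whether Bub1b was higher at 8 months alone or with other genes of cell division.

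The spindle checkpoint holds a dividing cell in metaphase until every kinetochore, the protein body that ties a chromosome to spindle microtubules, is attached. At an unattached kinetochore the kinase Ttk (Mps1) recruits Bub1 and Bub3 and starts the assembly of a complex of Bub1b (BubR1), Bub3, Mad2l1 (Mad2) and Cdc20. This complex blocks the anaphase-promoting complex, the ubiquitin ligase that Cdc20 would otherwise activate to release the sister chromatids. Plk1 and Aurkb are mitotic kinases that regulate attachment, Top2a untangles replicated DNA, and Mki67 encodes Ki-67, the usual marker of cycling cells. The neurons of the adult mammalian retina no longer divide. Mice with little BubR1 age early, and BubR1 has also been studied outside mitosis.

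Promoters of these genes are shown because genes of late cell cycle phases often share a short element, TTTGAA, known as the cell cycle genes homology region, and a CCAAT box. The windows run from 250 bases before to 50 bases after the annotated start and come from RefSeq on GRCm38.p6, the C57BL/6J reference, not from DBA/2J. Capitals mark TTTGAA and CCAAT on either strand, so that TTCAAA and ATTGG are the same motifs read from the other strand. The 3 members that passed the filter on low values described below are shown first, and Cdc20 and Plk1 stand for the members that did not pass.
Bub1b, chr2:118597961-118598260, plus strand: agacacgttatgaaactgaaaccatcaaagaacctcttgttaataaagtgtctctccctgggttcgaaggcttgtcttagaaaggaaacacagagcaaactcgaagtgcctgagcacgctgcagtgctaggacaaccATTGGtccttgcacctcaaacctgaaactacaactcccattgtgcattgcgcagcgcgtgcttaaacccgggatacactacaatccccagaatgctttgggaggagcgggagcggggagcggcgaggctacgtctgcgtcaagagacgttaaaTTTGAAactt
Bub3, chr7:131560120-131560419, plus strand: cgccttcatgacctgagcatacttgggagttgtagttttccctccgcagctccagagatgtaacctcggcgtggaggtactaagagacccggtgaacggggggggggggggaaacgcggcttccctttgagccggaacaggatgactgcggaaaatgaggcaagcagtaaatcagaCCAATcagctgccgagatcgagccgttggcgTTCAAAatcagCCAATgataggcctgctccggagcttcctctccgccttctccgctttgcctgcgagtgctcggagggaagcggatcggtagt
Mad2l1, chr6:66534971-66535270, plus strand: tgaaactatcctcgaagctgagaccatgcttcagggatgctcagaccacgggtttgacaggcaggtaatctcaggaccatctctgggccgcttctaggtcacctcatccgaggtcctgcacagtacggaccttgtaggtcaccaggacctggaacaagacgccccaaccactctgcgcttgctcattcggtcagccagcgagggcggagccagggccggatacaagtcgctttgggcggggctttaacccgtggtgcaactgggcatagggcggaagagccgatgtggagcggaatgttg
Cdc20, chr4:118437294-118437593, minus strand: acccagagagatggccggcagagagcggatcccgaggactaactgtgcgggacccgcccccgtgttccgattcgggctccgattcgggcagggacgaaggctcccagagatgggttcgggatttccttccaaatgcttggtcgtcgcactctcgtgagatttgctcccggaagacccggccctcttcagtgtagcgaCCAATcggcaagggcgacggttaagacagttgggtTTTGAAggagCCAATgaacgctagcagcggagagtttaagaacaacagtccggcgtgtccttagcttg
Plk1, chr7:122159185-122159484, plus strand: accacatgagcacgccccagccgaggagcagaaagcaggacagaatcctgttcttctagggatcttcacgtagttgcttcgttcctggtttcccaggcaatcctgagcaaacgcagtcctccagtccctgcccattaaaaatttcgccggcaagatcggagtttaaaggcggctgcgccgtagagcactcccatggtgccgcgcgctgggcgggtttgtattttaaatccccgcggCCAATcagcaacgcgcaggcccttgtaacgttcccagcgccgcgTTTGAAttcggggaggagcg
Promoters were found for 9 of the 10 genes. TTTGAA was present in the windows of 7 of these 9, with Bub1 and Mad2l1 lacking it, against 17.9% of all 32851 promoter windows. CCAAT was present in 8 of 9, with Mad2l1 lacking it, against 37.4% of all windows. For Bub3, which has 2 annotated starts, a match in either window counted, and the first is shown. No match overlapped another. Counting the start as base 1, TTTGAA begins at base 41 in Bub1b and at base 31 in Plk1, and in Cdc20 it begins 18 bases before the start. The CCAAT box of Bub1b lies on the other strand, beginning 113 bases before the start. The Bub1b window thus held the same 2 motifs as those of Cdc20 and Plk1, whose signals are described below. A match is a description of letters and not a site shown to be bound. Only these exact letters were searched, so a window without a match may hold another form of the element.

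Levels are GCRMA values on the log2 scale, in which 1 unit is a 2-fold difference. A probe set was called measured where the third highest of its 6 values was at least 4, without regard to age, and 20973 of the 45037 probe sets other than controls, or 46.6%, were. Between them they read 11219 named genes, each represented by its measured probe set of highest mean. GCRMA presses weak signals toward a floor, and the lowest value in the table was 2.17, so differences among values below 4 can be understated. Rod markers read 11.48 to 11.56 in 8-month retinas and 11.61 to 11.72 in 3-month retinas (list mean of 8 genes). Lens crystallin RNA was far higher in 8-month retina 1 and 3-month retina 3 than in the other 4, with Cryba1 at 12.53 and 13.53 against 3.93 to 8.90. The 3' minus 5' signal of the Gapdh control, a reading of RNA quality, was 0.755 to 0.811 at 8 months and 0.707 to 0.751 at 3 months, and that of actin overlapped between ages.

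Of the 10 genes, 3 had a measured probe set, namely Bub1b with 2, Bub3 with 3 and Mad2l1 with 1. The other 7 had none. Bub1b was chosen by the size and rank of its own difference between these ages, and the other 9 as its partners in mitosis, so the differences of the members are given as a description, without a test.

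Bub1b, which encodes the checkpoint's BubR1 subunit, was higher in the older retinas. On probe set 1416961_at it read 6.03, 5.60 and 5.80 in the 8-month retinas, in order of replicate, against 4.86, 4.90 and 4.76 in the 3-month ones. The lowest older retina lay 0.70 above the highest younger one, so the ages did not overlap. The 8-month mean was 5.81 ± 0.21 and the 3-month mean 4.84 ± 0.08 (SD over 3 retinas each), a log2 difference of 0.97 ± 0.13 (SE) or 1.96-fold. Of 20973 measured probe sets, 21 had a larger positive difference. In such whole-tissue samples, more cells of a type and more RNA per cell cannot be told apart.

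A second measured Bub1b probe set, 1447363_s_at, whose suffix marks probes that may match several transcripts, gave 5.49, 5.38 and 5.38 at 8 months, against 4.68, 4.86 and 4.40 at 3 months. Here too every older retina was above every younger one, and the difference was 0.77 ± 0.14 (SE), or 1.71-fold. Over the 6 retinas the 2 probe sets had a Pearson correlation of 0.96, and of 0.54 once each value was set against the mean of its age. Older retina 1 was the highest and younger retina 3 the lowest on each of them. The third probe set, 1447362_at, was dim and not measured, with 3.80, 4.15 and 3.80 at 8 months and 3.69, 3.80 and 3.80 at 3 months. Its ages overlapped, and its difference was 0.15 ± 0.12 (SE).

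Within the left eyes alone, the 1 older retina was 1.19 above the mean of the 3 younger ones on 1416961_at and 0.85 above it on 1447363_s_at. No younger right eye was sampled. The most lens-rich retinas were the highest older and the lowest younger retina for Bub1b, at 6.03 and 4.76. Among the older animals the pressure was lowest, at 25.3 mmHg, in the retina of highest Bub1b.

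**Figure D1:**
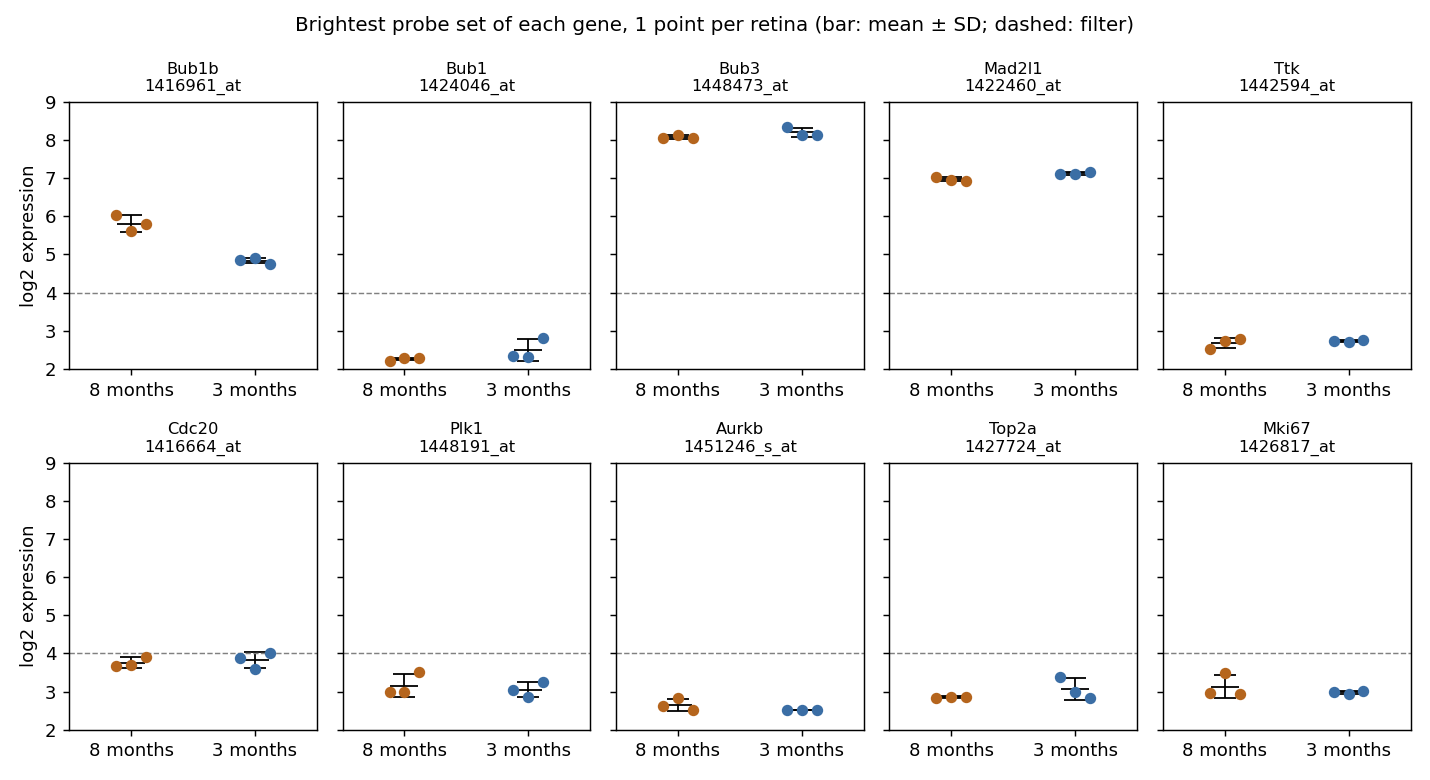
Log2 expression of the probe set of highest mean of each of the 10 genes, with 1 point per retina, 8 months left of 3 months, bars for mean ± SD (n = 3 each) and a dashed line at the filter of 4. The 3 older retinas lie above the 3 younger ones for Bub1b, Bub3 and Mad2l1 lie well above the line at nearly level values, and the other 7 genes lie below it but for 1 Cdc20 value at 4.004.

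Bub3 and Mad2l1, which bind in the same inhibitory complex as Bub1b, were measured and were not higher at 8 months. Bub3, a WD40-repeat protein that carries Bub1 and Bub1b to kinetochores, read 8.06, 8.12 and 8.04 at 8 months against 8.33, 8.13 and 8.13 at 3 months on probe set 1448473_at. The ages almost touched without overlapping, and the difference was -0.12 ± 0.07 (SE). A second Bub3 probe set, 1416815_s_at, gave 7.78, 7.91 and 7.91 against 7.98, 7.91 and 8.02, a difference of -0.11 ± 0.06. Another, 1448058_s_at, gave 4.68, 4.64 and 4.92 against 4.67, 4.75 and 4.88, with a difference of -0.02 ± 0.11 and overlapping ages. The remaining 2 Bub3 probe sets were below the filter in every retina, at 2.25 to 3.30.

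Mad2l1, the subunit that switches shape to capture Cdc20, read 7.03, 6.94 and 6.94 at 8 months and 7.10, 7.11 and 7.16 at 3 months on its 1 probe set. The older retinas lay just below the younger ones, by a log2 difference of -0.15 ± 0.04 (SE), or 0.90-fold. The median difference of all measured genes was -0.06. After quantile normalization, median centring or cyclic loess of the arrays, the ages overlapped for Mad2l1 and for every measured Bub3 probe set, with differences from -0.08 to -0.07 for Mad2l1 and from -0.06 to -0.04 for the brightest Bub3 probe set. The Bub1b differences under the same scalings were 1.01 to 1.05 on 1416961_at and 0.80 to 0.85 on 1447363_s_at, without overlap.

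The other 7 genes were read by 14 probe sets, none of them measured. Their 84 values lay between 2.22 and 4.004, with 70 under 3, and 1, a Cdc20 value of 4.004 in 3-month retina 3, reached 4. At this level the arrays could not show a difference between ages, and absence of the transcripts is not shown.

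Among the checkpoint kinases, Bub1, the paralogue of Bub1b that anchors the complex at kinetochores, read 2.22, 2.28 and 2.28 at 8 months against 2.33, 2.30 and 2.82 at 3 months on 1424046_at. The older values were all lower by a small margin, and the other Bub1 probe set overlapped, with a difference of -0.04. Ttk, the kinase that starts the signal, gave differences of -0.05 and 0.03 on its 2 probe sets, with every value between 2.49 and 2.85.

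Cdc20, the activator that the checkpoint restrains, came nearest to the filter. Its probe set 1416664_at read 3.66, 3.71 and 3.91 at 8 months and 3.87, 3.58 and 4.004 at 3 months, with overlapping ages and a difference of -0.06 ± 0.15 (SE). Its other 2 probe sets differed by 0.01 and -0.14.

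Plk1, a kinase active from mitotic entry to cytokinesis, read 2.98, 2.99 and 3.50 at 8 months against 3.04, 2.86 and 3.25 at 3 months, a difference of 0.11 ± 0.20. Aurkb, the kinase that corrects faulty attachments, differed by 0.14 on 1451246_s_at, where 8-month retina 2 stood highest at 2.83, and by -0.02 on 1424128_x_at.

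Of the general proliferation markers, Mki67 read 2.96, 3.48 and 2.93 at 8 months and 2.99, 2.93 and 3.02 at 3 months. Only 8-month retina 2 stood apart, still below the filter, and the difference was 0.15 ± 0.18 (SE). The 3 Top2a probe sets disagreed in direction, at -0.28, -0.21 and 0.23, and on each of them 1 retina lay well above the rest. Top2a stood at 3.51 in 3-month retina 3 on 1454694_a_at, at 3.38 in 3-month retina 1 on 1427724_at and at 3.22 in 8-month retina 3 on 1442454_at. The retina highest for Mki67 was also the highest for Aurkb on 1451246_s_at and for Bub1b on 1447362_at, at 4.15, none of them measured. It was not the highest for Plk1, Top2a or the measured probe sets of Bub1b.

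**Figure D2:**
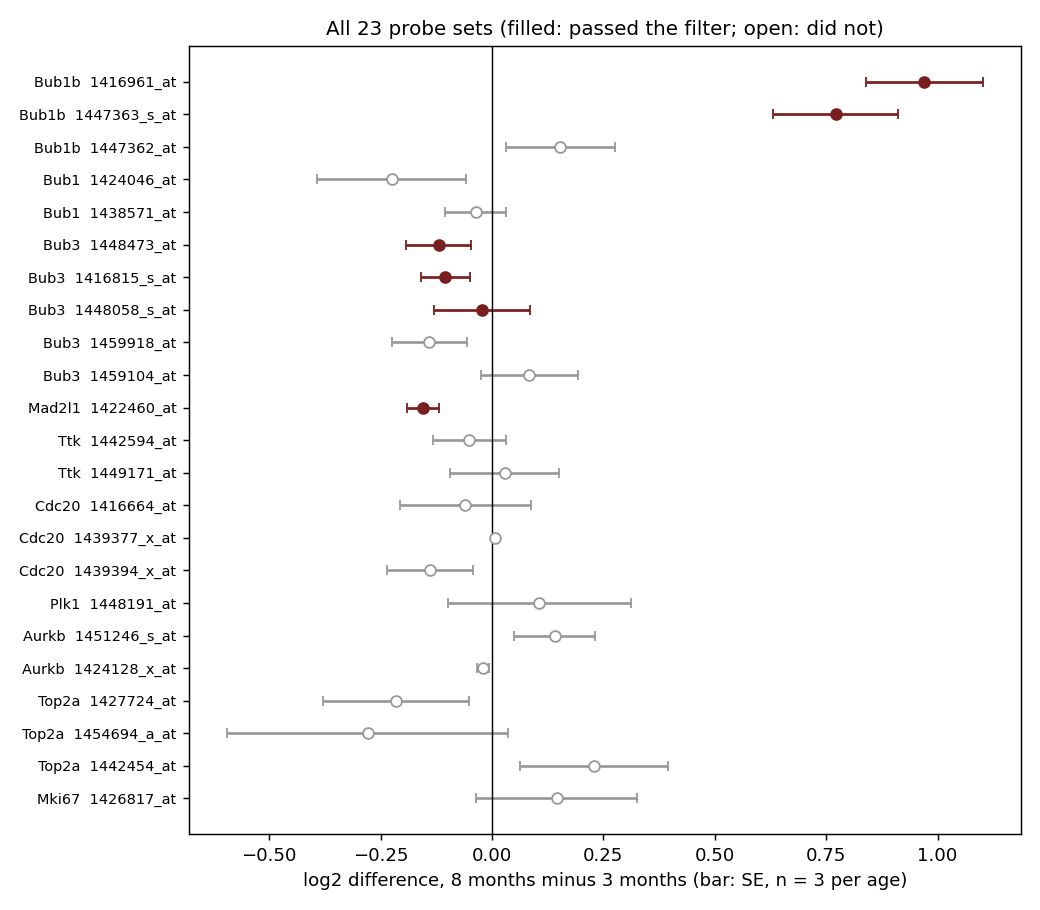
Log2 difference, 8 months minus 3 months, for all 23 probe sets of the 10 genes, with bars for the SE (n = 3 per age), filled where the probe set passed the filter. The measured Bub1b probe sets stand at 0.97 and 0.77, and the 20 probe sets of the other genes lie between -0.28 and 0.23.

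The pattern over the group rests on its 3 measured genes. Among the measured genes 1 of 3, Bub1b, had all older retinas above all younger ones, where 6.05% of all measured genes did, and 2 of 3 had them all below, where 16.9% of all measured genes did. Since the comparison served to choose Bub1b, nothing is read from that count. Over all 23 probe sets, measured or not, 2 had the older retinas above, both of Bub1b, and 5 had them below, against 5.86% and 10.2% of all 45037 probe sets. Of the 20 probe sets of the other 9 genes, 7 had a higher mean at 8 months and 13 a lower one. With each gene at its brightest probe set, the median log2 difference was -0.06 over the 9 genes other than Bub1b, 3 of them positive and 6 negative. The median of all measured genes was also -0.06. For 7 of these 9 genes none of the 14 probe sets was measured, so no direction is read from these counts.

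The wider machinery of cell division was read through 3 lists, of 128 genes in all, of which 125 were on the array with 1 symbol and 65 were measured. In these lists 0 genes passed the test over all probe sets (limma, Benjamini-Hochberg adjusted p of at least 0.263), against 0.00891% of all measured genes and 0.00477% of all measured probe sets, 1 in each case. With so few passing anywhere, a count of 0 does not show that the listed genes were level. All older retinas lay above all younger ones for 6 of the 65 genes and below for 7, where 6.05% and 16.9% of all measured genes did. Without adjustment, 7 of the 65, or 10.8%, had a limma p under 0.05, of which 3 were higher and 4 lower, against 15.1% of all measured genes. Incenp, Kif22, Fen1, Mcm4, Dnmt1 and Ccne1, described below, were read by probe sets with the suffix _x_at, whose probes may match other transcripts.

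The first list held kinetochore, checkpoint and anaphase-promoting complex genes. Of its 36 genes, 20 were measured, with 5 higher and 15 lower by mean and a median log2 difference of -0.08. The median over all measured genes, to be set beside that of each list, was -0.06. Cdc27, a core subunit of the anaphase-promoting complex, had the highest signal, with means of 11.04 ± 0.02 in older and 11.05 ± 0.08 in younger retinas (SD, n = 3). Cdc16, another subunit, read 8.73 ± 0.12 in older and 9.01 ± 0.10 in younger retinas without passing (limma adjusted p = 0.285), and Anapc7 and Anapc4 had differences of -0.23 and -0.16. Spc25, a subunit of the Ndc80 complex that grips microtubules, was the 1 of 20 genes of the list with all older retinas above the younger ones. All older retinas were below for 4, namely Cdc16, Anapc7, Anapc4 and Anapc1, another subunit of the complex, at -0.30. Among all measured genes, 6.05% had them above and 16.9% below. The 4 measured probe sets of Anapc1 disagreed in direction, from -0.40 to 0.12. Spc25 read 10.53, 10.55 and 10.53 at 8 months and 10.31, 10.44 and 10.19 at 3 months, a difference of 0.22, without passing (limma adjusted p = 0.318).

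The second list held genes of mitotic entry, spindle, chromosome condensation and cytokinesis. Of 49 on the array, 30 were below the filter and 19 were measured, with 11 higher and 8 lower by mean and a median of 0.04. Of all measured genes, 6.05% had all older retinas above all younger ones and 16.9% had them below. In this list 3 of the 19 had them above, namely Ect2, Tpx2 and the spindle kinesin gene Kif11, and 0 had them below. The largest difference was that of Ect2, which drives cytokinesis. It read 6.40, 6.10 and 6.36 at 8 months and 6.05, 5.78 and 5.24 at 3 months, with ages separated by 0.05 and a difference of 0.59 ± 0.21 (SE), without passing (limma adjusted p = 0.285). Tpx2, a spindle assembly factor that activates Aurora A, read 5.66, 5.50 and 5.50 at 8 months and 4.87, 5.49 and 4.87 at 3 months. Its ages were almost touching, and it did not pass (limma adjusted p = 0.305). Incenp, the scaffold that holds Aurkb at centromeres, had a difference of -0.27, and its other measured probe set had one of -0.02. Kif11, like Anapc1, Gins2 and Ccne1 named after its values were seen, read 4.19, 4.25 and 4.18 at 8 months against 4.08, 4.05 and 4.03 at 3 months, close to the filter, without passing (limma adjusted p = 0.376). Kif22, a chromosome-bound kinesin, and Smc4, a condensin subunit, were nearly level at -0.03 and 0.01. The 3 measured probe sets of Smc4 reached from -0.18 to 0.01.

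The last list held DNA replication genes. Of 40 on the array, 26 were measured, with 9 higher and 17 lower by mean and a median of -0.04. All older retinas were above the younger ones for 2 of the 26, Gins2 and Ccne1, at 0.17 and 0.24, and below for 3, Fen1, Gins4 and Rfc3. The shares of all measured genes were 6.05% above and 16.9% below. The second measured probe set of Gins2 gave a difference of -0.03, and so did that of Ccne1. Fen1, the flap endonuclease that processes Okazaki fragments, read 9.81, 9.98 and 9.97 at 8 months against 10.37, 10.11 and 10.58 at 3 months, a difference of -0.43 ± 0.13 (SE) that did not pass (limma adjusted p = 0.263). Gins4, a subunit of the replicative helicase, and Rfc3, of the clamp loader, had differences of -0.41 and -0.36, again without passing. Dnmt1, the maintenance DNA methyltransferase, was level at -0.04. The 2 probe sets of the helicase gene Mcm4 disagreed, at 0.23 and -0.31.

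**Figure D3:**
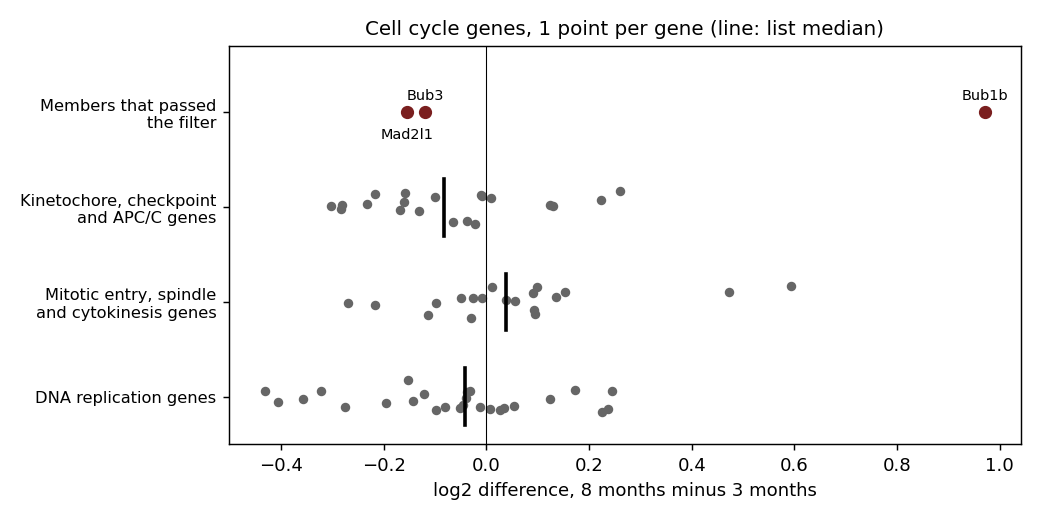
Log2 difference, 8 months minus 3 months, for the 3 measured members and for the measured genes of 3 cell cycle lists, 1 point per gene with a line at the list median. The list medians stand at -0.08, 0.04 and -0.04, where that of all measured genes was -0.06. The listed genes reach from -0.43 for Fen1 to 0.59 for Ect2. Bub1b, at 0.97, was chosen for its difference.

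The genes whose pattern was most like that of Bub1b were sought by Pearson correlation with 1416961_at over the 6 retinas, among 11218 other measured genes. The 5 with the highest values were Zc3hav1, an antiviral zinc finger gene, at 0.995, Pax6, the eye and amacrine cell transcription factor gene, at 0.991, Rasal2, a Ras GTPase-activating protein gene, at 0.988, the adaptor gene Skap2 at 0.977 and the muscle LIM protein gene Csrp3 at 0.975. All 5 were higher in every older retina, by log2 differences from 0.23 for Pax6 to 1.14 for Csrp3. Of the 11218 genes, 95 reached a correlation of 0.9, so with 6 retinas in 2 age groups such values mostly record which genes separate the ages. None of the 5 belonged to the cell division lists. The corresponding correlations were -0.64 for Bub3 and -0.815 for Mad2l1, and -0.13 and 0.53 once each value was set against the mean of its age.

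**Figure D4:**
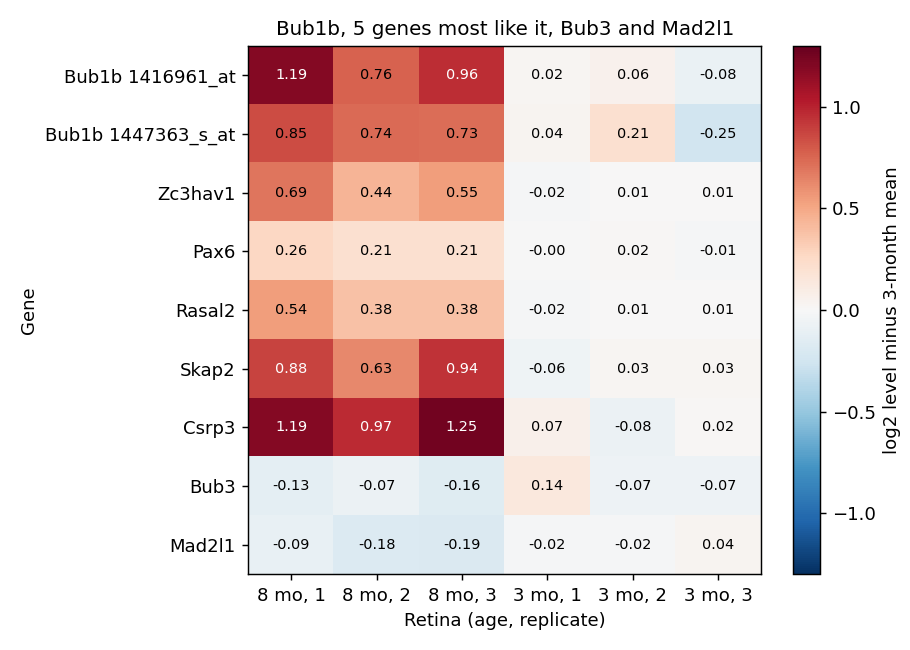
Log2 level of each gene in each retina minus its 3-month mean, for both measured Bub1b probe sets, the 5 genes most like Bub1b, Bub3 and Mad2l1, with retinas as columns. Bub1b stands at 0.76 to 1.19 in the older retinas on 1416961_at, while Bub3 and Mad2l1 stay within 0.19 of 0 in every retina.

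Markers of other cells were read beside Bub1b. Markers of microglia and macrophages, which can divide in a diseased retina, were higher at 8 months, with list means of 4.54, 4.62 and 4.67 in the 8-month retinas and 4.29, 4.35 and 4.31 in the 3-month ones. Of the 14 genes 13 had a higher mean, but only 7 of the 14 were measured, and the list means include the others. The summed level was 9.84 to 10.21 at 8 months and 9.33 to 9.41 at 3 months. All older retinas lay above all younger ones for 4, Ctss, C1qb, Tyrobp and Lyz2, and below for 1, Itgam. Of all 45037 probe sets, 5.86% had them above and 10.2% below. Aif1, Cx3cr1, C1qa, C1qc, Itgam, Ptprc and Cd68 were not measured, so nothing is read from their directions or from the count of 13. Among the older retinas the one with the highest Bub1b, replicate 1, had the lowest microglial mean. Its measured markers were divided, with C1qb, Laptm5, Fcer1g and Tyrobp lowest there, Lyz2 and Csf1r highest and Ctss between. A link to Bub1b was not tested. Müller glia and astrocyte markers had means of 10.41 to 10.46 at 8 months and 10.11 to 10.27 at 3 months, with 7 of 8 genes higher. The largest shift of the 8 was that of Gfap, at 4.87, 5.83 and 5.75 at 8 months against 4.25, 4.72 and 4.27 at 3 months. All older retinas lay above all younger ones for 3 of the 8, Gfap, Aqp4 and Glul, where 6.05% of all measured genes did, and Dkk3 had a lower mean. Their summed level was 14.45 to 14.59 at 8 months and 14.28 to 14.51 at 3 months. The part of these shifts and of the Gapdh reading in the Bub1b difference was not tested.

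The marker list of ganglion cells, whose axons form the optic nerve, was lower at 8 months, with means of 9.02 to 9.05 against 9.06 to 9.19 at 3 months, with 2 of 7 genes higher. Their summed level was 12.55 to 12.66 at 8 months and 12.65 to 12.79 at 3 months, with overlapping ages. All older retinas lay below all younger ones for 1 of the 7, Pou4f1, where 16.9% of all measured genes did, and above for 0. The median log2 difference of all measured genes was -0.06, so a small lower mean is not particular to this list.

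Other tissues did not separate the ages in the direction of Bub1b. Lens marker means were 8.02, 3.76 and 4.15 at 8 months and 5.05, 4.15 and 9.34 at 3 months, and the summed level was 7.55 to 14.13 at 8 months and 8.11 to 15.07 at 3 months. Without the 2 lens-rich retinas the Bub1b difference was 0.82. Endothelial means were lower, at 4.55 to 4.60 at 8 months against 4.62 to 4.89 at 3 months, and lymphocyte means were 2.73 to 2.81 at 8 months and 2.69 to 2.74 at 3 months, with 1 of 10 genes, Cd8a, measured. Pericyte and fibroblast, pigment epithelium, surface epithelium and red blood cell lists overlapped between ages.

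**Figure D5:**
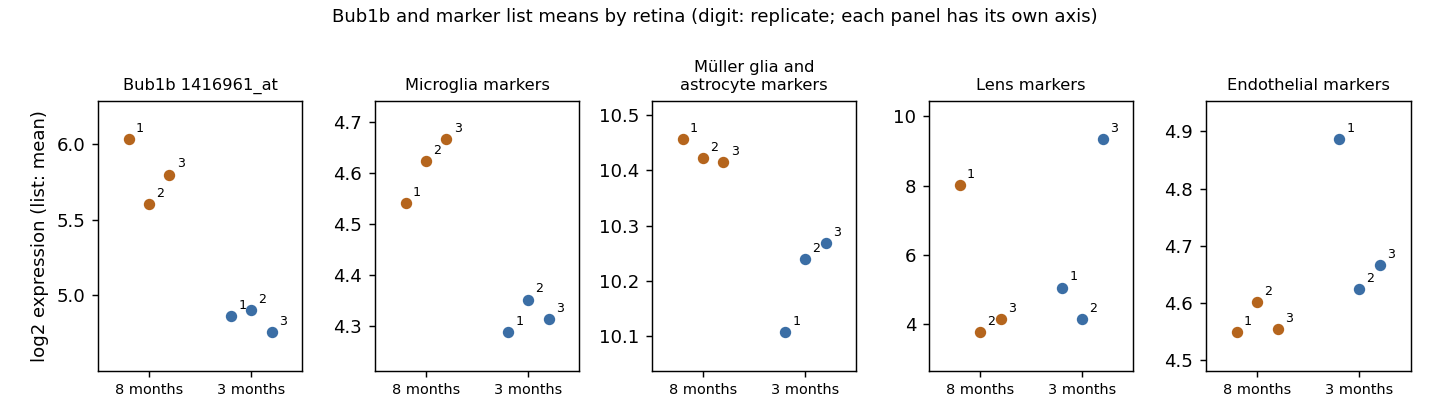
Log2 expression of Bub1b (1416961_at) and mean log2 expression of 4 marker lists in each retina, 8 months left of 3 months, with digits for the replicate and a separate axis for each panel. Microglial and glial means are higher in all older retinas, endothelial means are lower, and lens means are high in older retina 1 and younger retina 3.

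Within 100 kb of Bub1b on either side on chromosome 2, Pak6, Bmf, Ankrd63 and Plcb2 were on the array, with 7 probe sets between them. Bmf, which encodes an apoptotic BH3-only protein, had 2 measured probe sets, with differences of -0.17 and 0.07, and Plcb2, a phospholipase C gene, had 1, with a difference of 0.05. Pak6, Ankrd63 and the other Bmf probe set were below the filter, where a difference could not be shown.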

How the data were processed

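Each of 6 Affymetrix arrays held RNA of 1 retina, amplified from 20 ng and biotin-labelled, per the labels' protocols. The authors deposited log2 values per probe set. Per the submitters' processing notes, GCRMA 1.1.0 and R 1.9.0 were used, and their options are not given in the sources used here. Of 45101 probe sets, 64 controls were set aside. Genes were named from the platform annotation, and of 34945 probe sets with 1 gene, 34741 matched GRCm38.p6 by gene identifier. The members and lists were chosen with earlier results of these data known. For the comparison of ages, limma 3.58.1 (lmFit, eBayes; R 4.3.3) was fitted to the 20973 measured probe sets, two-sided, with Benjamini-Hochberg adjusted p under 0.05 as the threshold. Members got no test, and their SE comes from the 2 group SDs. With 3 arrays per age the smallest two-sided exact permutation p is 0.1. Named were all members, from each list the 3 genes of highest mean and the 3 of smallest p, 5 genes most like Bub1b, and marker genes of high level. The model was tested on simulated data. The number of arrays limits the precision. Alternatives were 3 array scalings, filters, eye side, a replicate block, the choice of probe sets and arrays left out.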

Additional observations from a re-analysis of the deposited data

How the results depend on the processing

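The Bub1b difference was 0.82 to 1.19 under the alternatives run. It was 1.19 with eye side as a covariate and 1.19 in left eyes only, which are the same estimate because right eyes occur only at 8 months. The replicate block cannot move a balanced mean difference. The difference was 0.86 to 1.07 with each retina left out in turn. The median difference of the 3 measured members, -0.12 as reported, was -0.061 after quantile normalization, -0.037 after median centring, -0.057 after cyclic loess, -0.056 over all 10 genes with no filter, and -0.155 to -0.051 with each retina left out, the value nearest 0 being that without 3-month retina 1. One Bub3 probe set, 1448058_s_at, turned to 0.06 under median centring. It was also positive without 8-month retina 1, at 0.012, without 8-month retina 2, at 0.032, and without 3-month retina 3, at 0.034. With the filter at 6 no Bub1b probe set was kept, and 0 of 2 measured members had all older retinas above the younger ones. The number of probe sets passing limma over the whole table, 1 as reported, was 2 after quantile normalization, 2 after median centring, 2 after cyclic loess and 2 with the filter at 6. It was 0 with no filter, 0 with eye side as a covariate, 0 with the replicate block, 0 without both lens-rich retinas and 0 with each retina left out in turn, with 1567 to 4159 at an unadjusted limma p under 0.05 over all alternatives. In the cell division lists 0 genes passed limma under all 15 alternatives, with 0 to 12 at an unadjusted p under 0.05 and smallest adjusted p values of 0.0985 to 0.664. As 0 to 2 probe sets passed over the whole table, this count does not show that the listed genes were level. The retinas came from separate animals, and the deviations of same-numbered retinas correlated at -0.14, 0.06 and -0.28, so they were not treated as pairs. The cause of these changes was not tested. Signal near the floor limits what can be said of the 7 members that were not measured.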
